A study of Mus musculus with 10 samples.

Results

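The genes described here are 10 adaptors and brakes of NF-κB signaling in mouse liver. They were chosen by name, with earlier results of these data known. They comprise the ubiquitin-editing or ubiquitin-binding brakes Tnfaip3, Tnip1, Tnip2 and Cyld, the adaptors Traf1, Traf2, Traf3 and Tifa, and the RNA-decay factors Zc3h12a and Zfp36. All 10 were found once each among the 38922 gene identifiers of the files. Wild-type C57BL/6N males, 6 weeks of age, received either saline or CD95-Ab, an antibody that activates the death receptor Fas (CD95), into the peritoneal cavity at 0.5 µg per g of body weight, and livers were taken at 6 h. Each group had 5 mice with a library each, and the labels give no further allele or agent for either group. The comparison addresses which genes change in acute liver failure caused by Fas activation.

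NF-κB is a family of transcription factors that is held inactive in resting cells and is released when receptors for TNF, interleukin 1 or bacterial products assemble complexes built with ubiquitin chains. TRAF proteins are the adaptors and ubiquitin ligases of these complexes, whereas Tnfaip3 (A20) and Cyld remove or edit the ubiquitin chains, and Tnip1 and Tnip2 bind both ubiquitin and A20. A further layer of restraint acts on RNA: Zc3h12a (regnase-1) cleaves and Zfp36 (tristetraprolin) destabilises transcripts of cytokines. In liver, hepatocytes are sensitive to Fas-induced apoptosis, and several of the brakes are themselves known targets of NF-κB.

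The libraries held between 25965699 and 62097636 counts, and levels are given as CPM, which are counts scaled to a library total of 1000000 after adjustment of that total by TMM factors. On that scale 3 counts corresponded to 0.0556 to 0.121 CPM. The first principal component of the expression values, with 67.7% of the variance, separated the groups. Along the second component, with 9.84%, saline mouse 5 and CD95-Ab mouse 4 stood apart from the other 8 mice, and in both of them the genes with the shortest transcripts lay above their group mean (median deviation of the shortest 25% of genes, 0.20 and 0.28 on the log2 scale) and those with the longest lay below it (-0.15 and -0.22). The counts of called genes are given with and without these 2 mice, as are those fold changes of the 10 genes that they move most. Hepatocyte markers (Alb, Apoa1, Ttr, Cyp3a11, Cps1 and Serpina1c) summed to 102386 to 130695 CPM in saline mice and to 50409 to 88368 CPM after CD95-Ab, so the label of liver held in every mouse. Most of the sum was Alb, at 76153 to 98067 CPM in saline mice and 30505 to 60979 CPM after CD95-Ab. Of the 6 markers, Alb and Ttr were called lower in the test described below, and the other 4 were not called. In whole tissue, fewer cells of a type and less RNA per cell cannot be told apart. Rn7sk, a small nuclear RNA that lacks a poly(A) tail, was at 0.204 to 0.808 CPM in saline mice and at 355 to 1301 CPM after CD95-Ab, and the part of such library differences in the results was not tested.

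All 10 genes were higher in livers of CD95-Ab mice than in those of saline mice. Each passed the threshold of an FDR of 0.05 or less in edgeR's quasi-likelihood test, in which 25.4% of the 13719 tested genes were called higher and 22.0% lower. Increases ranged from 1.36-fold for Cyld to 39.2-fold for Tnfaip3, and 5 genes (Tnfaip3, Tifa, Traf1, Tnip1 and Zc3h12a) reached 2 or more on the log2 scale, against 6.59% of tested genes. For 9 genes the lowest CD95-Ab mouse lay above the highest saline mouse in CPM, against 18.6% of tested genes, and the exception was Tnip2. On the FPKM scale, which is per transcript length, 8 of the 10 were free of overlap, against 14.8% of tested genes, and the groups overlapped for Cyld and Traf2. The median log2 fold change was 1.87 for the 10 genes and 0.01 for all tested genes. Traf1 had 5 to 17 counts in saline mice and entered the test through the CD95-Ab mice, and the other 9 genes had at least 10 counts in every mouse and a median of 1.73. Without saline mouse 5 and CD95-Ab mouse 4, all 10 were again called higher, and 5 reached 2 or more on the log2 scale. In that setting 7093 of 13784 tested genes were called, 51.3% of them higher. None of the 10 overlapped in CPM among these 8 mice. That had to follow, since the only overlap among all 10 mice was that of saline mouse 5 for Tnip2. The share of all genes without overlap is not given for 4 mice against 4, and the 18.6% above is for 5 against 5.

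**Figure D1:**
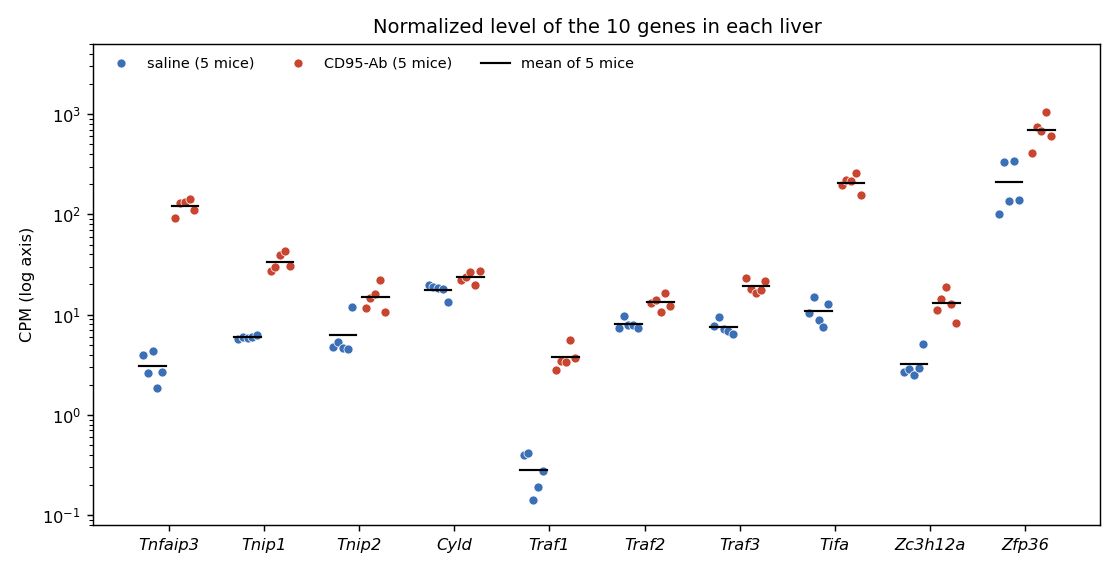
Normalized level (CPM, log axis) of each of the 10 genes in every mouse, with 5 saline mice in blue, 5 CD95-Ab mice in red, and a black line at each group mean. Red points lie above all blue points for 9 genes, and for Tnip2 saline mouse 5 (11.9 CPM) lies above the lowest red point (10.7 CPM).

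Markers of other liver cells moved with the groups, and their part in these increases was not tested. Neutrophil markers summed to 4.12 to 10.4 CPM in saline mice and 102 to 409 CPM after CD95-Ab, with all 5 tested markers called higher. Ly6g and Mpo, also on that list, had at most 16 and 38 counts in any mouse and were not tested. Macrophage and Kupffer cell markers went from 90.2 to 282 CPM in saline mice to 169 to 341 CPM, with 2 of 7 called higher, and endothelial markers from 40.6 to 79.6 CPM to 143 to 309 CPM, with 4 of 5. Erythroid markers summed to 123 to 239 CPM and then to 730 to 22161 CPM (3 of 3 higher), and cholangiocyte markers to 2.96 to 4.58 CPM and then to 23.7 to 99.0 CPM (3 of 4). Most of the latter rise was Sox9, at 1.02 to 3.23 CPM in saline mice and 20.5 to 85.2 CPM after CD95-Ab. Krt19, Krt7 and Epcam reached at most 6.29, 4.38 and 3.15 CPM after CD95-Ab, and Krt7 was not called. Lymphocyte markers reached at most 10.01 CPM in sum in any mouse (5 of 6 higher), and stellate cell markers summed to 51.1 to 69.8 CPM and then to 67.2 to 146 CPM (2 of 4).

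The promoters are shown because NF-κB binds a short DNA element, the κB site, and members of this pathway are among its known targets. In RefSeq promoter windows of GRCm38.p6, from 250 bases before to 50 after a gene start, the κB consensus on either strand occurred in 1480 of 32851 windows (4.51%). It was found for 5 of the 10 genes, in 5 of their 12 windows, and for 8 of 51 other genes of the pathway lists. Such a match is a description of letters and does not show binding. The stretches with matches follow, 5′ to 3′ on the strand of the gene, with κB matches in capitals. Tnfaip3 is chr10:19015411-19015660 (minus strand), Tnip1 chr11:54962941-54963190 (minus), Cyld chr8:88696848-88696907 (plus), Traf3 chr12:111166310-111166369 (plus) and Tifa chr3:127790675-127790704 (plus).
Tnfaip3: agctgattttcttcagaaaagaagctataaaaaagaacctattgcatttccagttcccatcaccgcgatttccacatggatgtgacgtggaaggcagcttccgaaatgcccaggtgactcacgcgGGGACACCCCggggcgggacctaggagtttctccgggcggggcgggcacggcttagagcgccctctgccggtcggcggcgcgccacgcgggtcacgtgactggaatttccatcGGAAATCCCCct
Tnip1: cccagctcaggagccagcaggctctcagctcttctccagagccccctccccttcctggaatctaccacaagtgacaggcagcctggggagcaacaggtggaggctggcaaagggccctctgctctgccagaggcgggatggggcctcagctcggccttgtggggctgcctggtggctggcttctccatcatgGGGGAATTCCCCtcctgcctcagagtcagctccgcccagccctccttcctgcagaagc
Cyld: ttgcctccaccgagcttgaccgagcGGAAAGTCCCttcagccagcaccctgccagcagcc
Traf3: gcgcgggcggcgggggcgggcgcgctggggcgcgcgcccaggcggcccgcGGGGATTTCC
Tifa: gcgtcgttgtgatccGGGATTTTCCaattt

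Tnfaip3 had 2 matches, at positions -125 to -116 and -12 to -3 from the RefSeq start. In GENCODE M21 the gene starts further upstream, at 19015657 on the minus strand, so both matches lie within the gene as annotated there. Tnip1 had 3 matches that overlap each other between -58 and -47, since the run reads the same on both strands. Traf3 had a match that ended at -1, Cyld one at -155 to -146 and Tifa one within the transcribed part at 34 to 43. The AP-1 motif (TGANTCA, both strands, which overlaps no κB match here) was in 7.81% of windows and in that of 1 of the 10 genes, Tnfaip3, at -136 to -130. The log2 fold changes of the genes with a κB match ran from 0.44 for Cyld to 5.29 for Tnfaip3, and those of the genes without one from 0.72 for Traf2 to 3.70 for Traf1, so both sets held small and large increases.

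Among the ubiquitin-editing and ubiquitin-binding brakes, Tnfaip3 rose most. Tnfaip3 (ENSMUSG00000019850, chromosome 10, 19000910 to 19015657, minus strand) was at 3.93, 2.64, 4.34, 1.85 and 2.71 CPM in saline mice 1 to 5 and at 92.2, 130, 132, 144 and 111 CPM in CD95-Ab mice 1 to 5. The groups lay far apart, with the lowest CD95-Ab mouse 21.2 times the highest saline mouse. The log2 fold change was 5.29 ± 0.25 (SE, n = 5 per group; edgeR quasi-likelihood test, FDR = 1.59e-07), which ranked 7th by FDR among all tested genes. Its spread was wider in the saline group than in the CD95-Ab group, with coefficients of variation of 32.97% and 16.7%. The saline values rest on 48 to 167 counts and the CD95-Ab values on 2872 to 5003.

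Tnip1, a partner of A20 that binds ubiquitin chains, was the steadiest of the 10 genes in control liver. Tnip1 (ENSMUSG00000020400, chromosome 11) was at 5.76, 5.96, 5.89, 5.93 and 6.27 CPM in saline mice 1 to 5, a coefficient of variation of 3.13%. After CD95-Ab it was at 27.0, 30.1, 39.2, 42.7 and 30.3 CPM. All CD95-Ab mice lay above all saline mice, and the log2 fold change was 2.50 ± 0.14 (FDR = 3.89e-07).

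Tnip2, the related ubiquitin-binding partner of A20, rose less and with overlap. Tnip2 (ENSMUSG00000059866, chromosome 5) was at 4.70, 5.34, 4.68, 4.54 and 11.9 CPM in saline mice and at 11.6, 14.8, 16.1, 22.3 and 10.7 CPM after CD95-Ab. Saline mouse 5 was higher than CD95-Ab mice 1 and 5, and the other 4 saline mice were lower than every CD95-Ab mouse. The log2 fold change was 1.26 ± 0.30 (FDR = 0.00462), and it was 1.64 without saline mouse 5 and 1.45 without both saline mouse 5 and CD95-Ab mouse 4. In FPKM the same saline mouse, at 6.29, stayed below the lowest CD95-Ab mouse, at 6.72.

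Cyld, a deubiquitinase that cleaves the chains of TNF receptor complexes, had the smallest increase of the 10 genes. Cyld (ENSMUSG00000036712, chromosome 8) was at 19.8, 18.8, 18.5, 17.8 and 13.3 CPM in saline mice and at 22.2, 23.9, 26.4, 19.9 and 27.2 CPM after CD95-Ab. The groups were separated by a gap of 1.01-fold, between saline mouse 1 and CD95-Ab mouse 4. The log2 fold change of 0.44 ± 0.13 passed the threshold (FDR = 0.0162) with the default scaling, and it did not with scaling by total counts (0.34, FDR = 0.158) or with limma on FPKM (0.34, FDR = 0.186). Cyld has the longest transcripts of the 10 genes, with an effective length of 7.89 kb. Its lowest values in both groups were in the 2 mice with low levels of long transcripts. Traf3 (6.68 kb) was lowest in saline mouse 5 and in CD95-Ab mouse 3. Tnfaip3 (4.32 kb) was lowest in saline mouse 4 and highest in CD95-Ab mouse 4. The part of length in these values was not tested.

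The adaptors rose by very different amounts, from 0.72 on the log2 scale for Traf2 to 4.25 for Tifa. Traf2 (ENSMUSG00000026942, chromosome 2), the ubiquitin ligase adaptor of TNF receptor complexes, was at 7.32, 9.61, 7.95, 7.97 and 7.40 CPM in saline mice and at 13.2, 13.9, 10.5, 16.5 and 12.2 CPM after CD95-Ab. Saline mouse 2 was the highest control and came within 1.10-fold of CD95-Ab mouse 3, the lowest of its group. The log2 fold change was 0.72 ± 0.14 (FDR = 0.00124).

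Traf1 lacks the ubiquitin ligase domain of its relatives and binds Traf2. Traf1 (ENSMUSG00000026875, chromosome 2) was at 0.400, 0.415, 0.141, 0.192 and 0.278 CPM in saline mice and at 2.82, 3.47, 3.38, 5.61 and 3.68 CPM after CD95-Ab. The lowest CD95-Ab mouse was 6.80 times the highest saline mouse, and the log2 fold change was 3.70 ± 0.31 (FDR = 3.67e-06). Without saline mouse 5 and CD95-Ab mouse 4 it was 3.49. Traf1 remained the least abundant of the 10 genes per length in both groups, at a mean of 0.174 and 2.11 FPKM.

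Traf3, a restraint on the noncanonical NF-κB kinase Map3k14 (NIK), rose in all CD95-Ab mice. Traf3 (ENSMUSG00000021277, chromosome 12) was at 7.79, 9.43, 7.13, 6.81 and 6.45 CPM in saline mice and at 23.4, 17.9, 16.4, 17.8 and 21.5 CPM after CD95-Ab. The groups were 1.74-fold apart at their nearest mice, and the log2 fold change was 1.37 ± 0.14 (FDR = 1.74e-05). Map3k14 itself rose as well, from 1.27 to 2.85 CPM in saline mice to 8.79 to 13.3 CPM (log2 fold change 2.31 ± 0.21, FDR = 5.24e-06).

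Tifa, an adaptor that assembles with Traf6, came second to Tnfaip3 in fold change. Tifa (ENSMUSG00000046688, chromosome 3) was at 10.4, 14.9, 8.88, 7.58 and 12.7 CPM in saline mice and at 194, 218, 213, 259 and 155 CPM after CD95-Ab. All CD95-Ab mice were at least 10.4 times the highest saline mouse, and the log2 fold change was 4.25 ± 0.22 (FDR = 2.65e-07). Tifa overlaps Ap1ar on the opposite strand, a gene with 5922 counts over the 10 mice against 33786 for Tifa, and whether strand was used in counting is not given in the sources used here.

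The RNA-decay factors started from very different levels per length, with means of 1.36 FPKM for Zc3h12a and 126.5 FPKM for Zfp36 in saline mice. Zc3h12a (ENSMUSG00000042677, chromosome 4), the endonuclease regnase-1, was at 2.66, 2.85, 2.48, 2.92 and 5.14 CPM in saline mice and at 11.1, 14.5, 18.9, 12.6 and 8.28 CPM after CD95-Ab. The nearest mice of the groups, saline 5 and CD95-Ab 5, were 1.61-fold apart. The log2 fold change was 2.02 ± 0.26 (FDR = 7.12e-05) and ranged from 1.84 to 2.25 when each mouse was left out in turn. It was 2.26 without both saline mouse 5 and CD95-Ab mouse 4.

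Zfp36 (ENSMUSG00000044786, chromosome 7), the RNA-binding protein tristetraprolin, varied most among control mice. It was at 101, 333, 136, 343 and 138 CPM in saline mice 1 to 5 and at 414, 745, 685, 1038 and 599 CPM after CD95-Ab. Saline mice 2 and 4 were about level with each other and well above the other 3 controls, yet still below the lowest CD95-Ab mouse, by 1.21-fold. The log2 fold change was 1.73 ± 0.37 (FDR = 0.00254), the widest standard error of the 10 genes, and it was 1.41 without saline mouse 5 and CD95-Ab mouse 4.

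Per transcript length, the order of the genes changed between the groups, and Tnfaip3 moved furthest. In saline mice the mean FPKM was 126.5 for Zfp36, 5.99 for Tifa, 3.77 for Tnip2, 3.60 for Traf2, 2.36 for Tnip1, 2.34 for Cyld, 1.36 for Zc3h12a, 1.16 for Traf3, 0.754 for Tnfaip3 and 0.174 for Traf1. Zfp36 stood clear of Tifa, Traf2 of Tnip1 and Tnfaip3 of Traf1, and the ranges over mice of all other neighbours in that order overlapped. After CD95-Ab the mean FPKM was 381 for Zfp36, 104 for Tifa, 27.4 for Tnfaip3, 12.6 for Tnip1, 8.46 for Tnip2, 5.31 for Traf2, 4.95 for Zc3h12a, 2.96 for Traf3, 2.96 for Cyld and 2.11 for Traf1. The upper 5 of these and Traf2 had ranges that did not overlap, and the neighbours from Traf2 down to Traf1 overlapped. Tnfaip3 thus went from rank 9 to rank 3, and Cyld from rank 6 to rank 9.

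**Figure D2:**
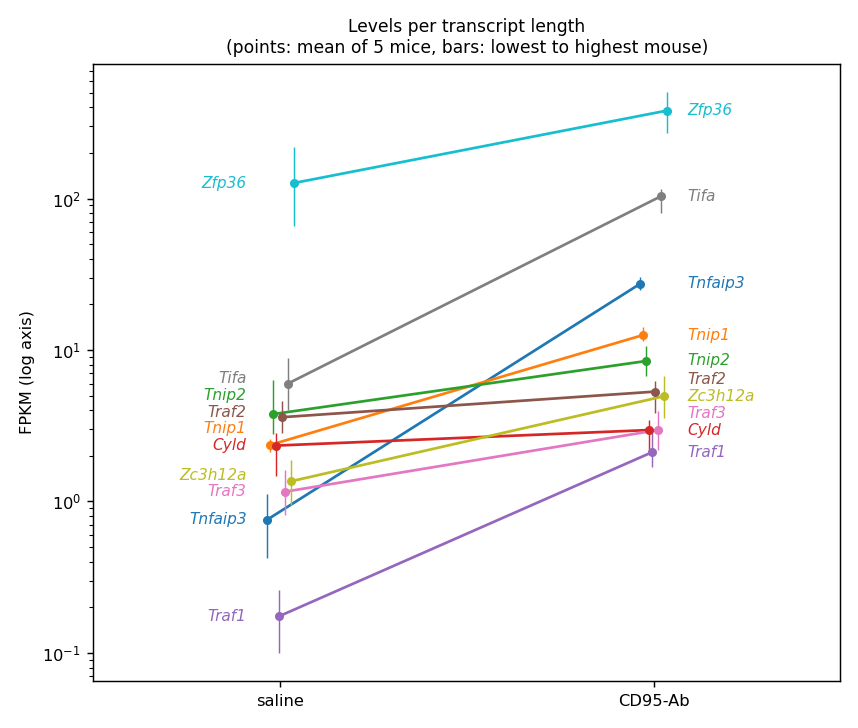
Mean FPKM (log axis) of each gene in saline and CD95-Ab livers, with bars from the lowest to the highest of 5 mice and a line joining the means of a gene. Tnfaip3 climbs from 0.754 to 27.4 FPKM and crosses 6 other genes, while Zfp36 and Tifa keep the top ranks.

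Ratios between related genes within a mouse need no scaling between libraries, and 6 pairs were compared with a two-sided exact permutation test, whose smallest p for 5 mice against 5 is 0.00794. Counts were used with 0.5 added. The ratio of Tnfaip3 to Tnip1 was 0.314 to 0.737 in saline mice and 3.36 to 4.31 after CD95-Ab, a difference of 2.86 on the log2 scale (exact permutation p = 0.00794, adjusted over the pairs 0.00952). The nearest ratios of the groups were those of saline mouse 3 and CD95-Ab mouse 4, and the groups did not overlap.

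The ratio of Tnfaip3 to Cyld went from 0.105 to 0.236 in saline mice to 4.08 to 7.20 after CD95-Ab, a difference of 4.90 on the log2 scale. The ratio of Traf1 to Traf2 went from 0.0195 to 0.0562 in saline mice to 0.215 to 0.341, a difference of 3.02. The ratio of Traf3 to Traf2 went from 0.855 to 1.06 in saline mice to 1.08 to 1.77, a difference of 0.65. These groups did not overlap, and each of the 3 pairs gave an exact permutation p of 0.00794 (adjusted 0.00952). For Traf3 to Traf2 the nearest mice were close, saline mouse 1 at 1.06 and CD95-Ab mouse 4 at 1.08. With FPKM in place of counts that pair gave an exact permutation p of 0.0159 (adjusted 0.0190). The 2 genes differ in effective length, at 6.68 kb for Traf3 and 2.38 kb for Traf2.

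The 2 partners of A20 also changed unequally. The ratio of Tnip1 to Tnip2 was 1.22, 1.12, 1.26, 1.30 and 0.525 in saline mice 1 to 5 and 2.31, 2.03, 2.43, 1.92 and 2.84 after CD95-Ab, a difference of 1.14 on the log2 scale (exact permutation p = 0.00794, adjusted 0.00952). Without saline mouse 5 the groups stay separate by construction, and the difference was 0.90. For the RNA-decay factors no such difference was found: the ratio of Zc3h12a to Zfp36 was 0.00858 to 0.0373 in saline mice and 0.0122 to 0.0276 after CD95-Ab, a difference of 0.17 (exact permutation p = 0.659). That difference was -0.068 when either saline mouse 2 or saline mouse 4, the controls with high Zfp36, was left out, and 0.62 without saline mouse 5 and CD95-Ab mouse 4 (exact permutation p = 0.2).

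**Figure D3:**
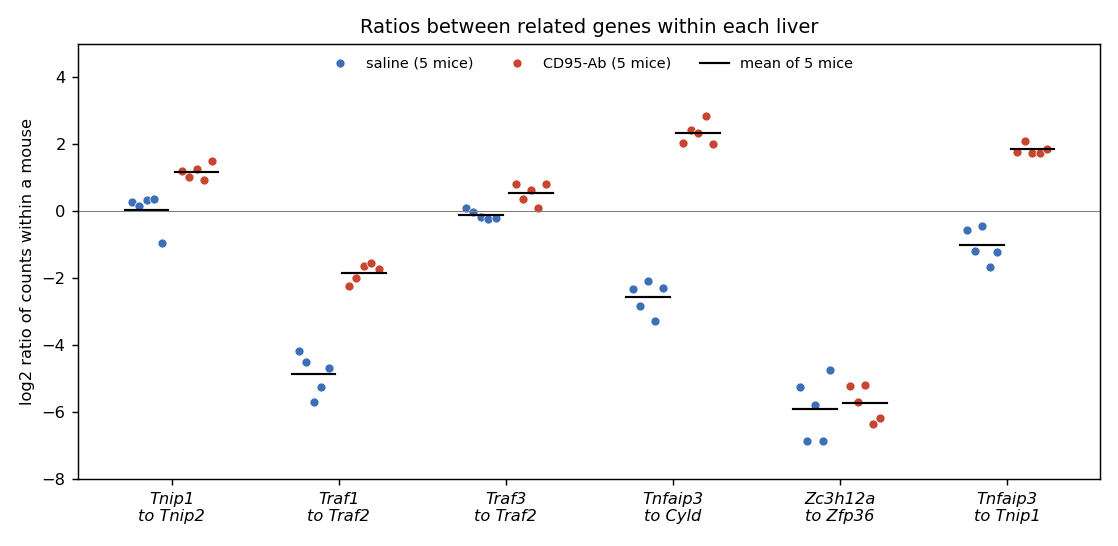
Log2 ratio of counts of 2 related genes within each mouse, for 6 pairs, with saline mice in blue, CD95-Ab mice in red and a black line at each mean of 5 mice. The groups are apart for 5 pairs and overlap for Zc3h12a to Zfp36.

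Mice of a group did not shift evenly across the 10 genes. CD95-Ab mouse 4 was the highest of its group for 7 genes and the lowest for Cyld. CD95-Ab mouse 1 was the lowest for 4 genes (Tnfaip3, Tnip1, Traf1 and Zfp36) and the highest for Traf3. Among saline mice, mouse 2 was the highest for 4 genes, and mouse 5 was the highest for Tnip1, Tnip2 and Zc3h12a and the lowest for Cyld and Traf3. The widest deviations from a group mean were 1.05 on the log2 scale for Tnip2 in saline mouse 5, -0.90 for Traf1 in saline mouse 3, which rests on 5 counts, and 0.89 for Zfp36 in saline mouse 4.

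**Figure D4:**
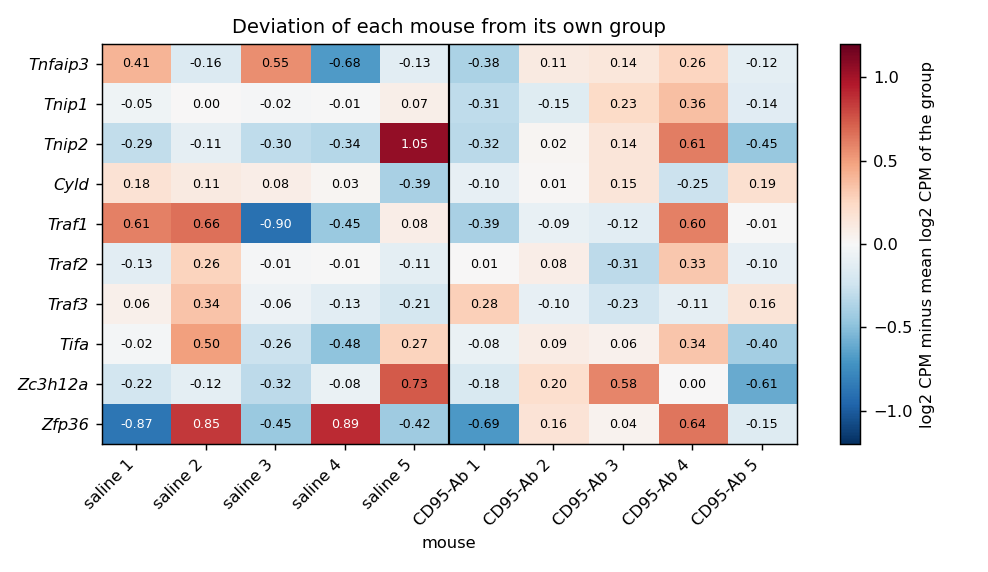
Log2 CPM of each gene in each mouse minus the mean log2 CPM of its own group of 5 mice, with red above and blue below the mean. Zfp36 is high in saline mice 2 and 4, and Tnip2 (1.05) and Zc3h12a (0.73) are high in saline mouse 5.

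The genes whose pattern over the 10 mice was most like that of each of these were found by the root mean square difference of mean-centred log2 CPM. Here a prior of 2 counts was added before the log, a larger one than in the fitted fold changes. For Tnfaip3 they were Plaur (0.31), Clec5a (0.39), Trem1 (0.40), Mrgpra2b (0.41) and Mmp12 (0.43), with log2 fold changes of 5.84, 6.43, 6.18, 7.64 and 5.27. Mmp12 was at a mean of 3.18 CPM in saline mice and 123 CPM after CD95-Ab, whereas Clec5a, Trem1 and Mrgpra2b were under 0.1 CPM in saline mice. The added counts compress the change of genes so near 0, so the likeness of Clec5a, Trem1 and Mrgpra2b to Tnfaip3 depends on them. Nearest to Tnip1 was Nfkb1 (0.13), to Tifa Icam1 (0.29), to Traf1 Cish (0.20), to Traf2 Sqstm1 (0.10) and to Traf3 Rasa2 (0.14). Nearest to Cyld was Pls3 (0.06), to Tnip2 Rpl12 (0.18), to Zc3h12a Rassf1 (0.16) and to Zfp36 Osgin1 (0.29). These distances are descriptions, and all genes share the same 10 libraries.

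The other genes of the pathway, taken from 5 lists of 64 genes of which 59 were tested, changed less uniformly. Of the 59, 27 were called higher (45.8%), 6 lower (10.2%) and 26 neither, beside 25.4% higher and 22.0% lower among all tested genes, whose median log2 fold change was 0.01. The share of higher calls was 44.4% for TRAF genes, 30% for ubiquitin-editing genes, 43.5% for receptor complexes and 12.5% for genes of RNA decay or stability. It was 100% for transcripts bound by Zfp36 or Zc3h12a, which gave 9 of the 27 higher calls. Of these 9, 5 had under 14 counts in every saline mouse and entered the test through the CD95-Ab mice, as did Tnip3. Such genes can hardly be called lower, which raises the share of higher calls. Where at least 10 counts were required in every mouse, 22 list genes were called higher, 4 of them bound transcripts. The share of the ubiquitin-editing genes was near that of all genes. Among other TRAF family and TRAF-binding genes, 4 of 9 were higher and 1 lower, with a median log2 fold change of 0.20. Tifab, a relative of Tifa, rose by 2.49 ± 0.41 on the log2 scale (FDR = 0.000461), Traf3ip3 by 1.51 ± 0.30 (FDR = 0.00145) and Tank, which binds TRAF proteins, by 1.23 ± 0.13 (FDR = 1.74e-05). Traf6, the ubiquitin ligase of interleukin 1 receptor complexes, was at 11.2 to 18.9 CPM in saline mice and 12.3 to 23.8 CPM after CD95-Ab, and it did not pass the test (0.20 ± 0.19, FDR = 0.397). Traf5 did not pass either (0.18 ± 0.20), Traf7 was higher (0.90 ± 0.24), and Traf4 was lower (-0.36 ± 0.13, FDR = 0.0366).

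Of 10 other ubiquitin-editing and deubiquitinating genes, 3 were higher and 2 lower, and the median was 0.0095. Tnip3, the remaining partner of A20 in that family, was at 0 to 0.0889 CPM in saline mice, at most 3 counts, and at 0.518 to 1.93 CPM after CD95-Ab (FDR = 6.21e-05), and its fitted log2 fold change of 5.54 depends on the count added by the fit. N4bp1 (0.95 ± 0.17) and Rnf11 (0.37 ± 0.10), which works with A20, were higher, and Itch, another ubiquitin ligase of the A20 complex, was lower (-0.67 ± 0.16, FDR = 0.00543), as was Usp10 (-0.44 ± 0.12). Otulin, which removes linear ubiquitin chains (-0.14 ± 0.11), and Tax1bp1, an adaptor of A20 (-0.09 ± 0.12), did not pass the test.

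In the receptor complexes of TNF and interleukin 1, 10 of 23 genes were higher and 2 lower, with a median of 0.25. Irak3, a brake on interleukin 1 and Toll-like receptor signaling, was at 0.535 to 1.16 CPM in saline mice and 10.3 to 26.1 CPM after CD95-Ab, a log2 fold change of 4.56 ± 0.33 (FDR = 1.45e-06). Ripk2 rose by 2.90 ± 0.26 on the log2 scale, Birc3 (cIAP2), a ubiquitin ligase recruited by Traf2, by 2.57 ± 0.19, Birc2 by 1.54 ± 0.18, Myd88 by 1.29 ± 0.11 and Irak2 by 1.21 ± 0.18, each with an FDR of 0.000173 or less and free of overlap between groups. Ripk1 (0.37 ± 0.11), Irak4 (0.42 ± 0.13) and Ube2n (0.37 ± 0.10) rose by less. The kinases Map3k7 (0.15 ± 0.11), Chuk (0.10 ± 0.12) and Ikbkb (0.22 ± 0.10), which activate NF-κB, and Rnf31 (0.29 ± 0.15) and Sharpin (-0.18 ± 0.15), which build linear ubiquitin chains, did not pass the test. The lower genes were Tradd (-0.55 ± 0.17, FDR = 0.0163) and Tab1 (-0.44 ± 0.16, FDR = 0.0411).

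Of other genes of RNA decay or stability, 1 of 8 was higher and 1 lower, with a median of -0.0015. Elavl1 and Cnot1 on this list belong to none of the Zfp36, Zc3h12 and Roquin (Rc3h) families. The count of higher genes became 2, with Elavl1 added, without CD95-Ab mouse 1 (FDR = 0.0405), without saline mouse 3 (FDR = 0.0333) or with at least 10 counts in every mouse (FDR = 0.0489). Zfp36l1, a close relative of Zfp36, was at 77.6 to 155 CPM in saline mice and 205 to 387 CPM after CD95-Ab (1.60 ± 0.23, FDR = 0.000155), and Zc3h12d was lower (-0.63 ± 0.20, FDR = 0.0191). Zfp36l2 (-0.11 ± 0.18), Zc3h12c (0.09 ± 0.26) and the Roquin genes Rc3h1 (-0.09 ± 0.20) and Rc3h2 (0.21 ± 0.13) did not pass.

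Transcripts known to be bound by Zfp36 or Zc3h12a were higher for each of the 9 tested, among 11 listed, beside 25.4% of all tested genes. Their median log2 fold change was 3.80, and FDR values reached at most 0.00399. Cxcl1 was at 8.63 to 48.7 CPM in saline mice and 193 to 468 CPM after CD95-Ab (3.24 ± 0.45), Il1b at 1.07 to 2.76 CPM and then 13.7 to 44.8 CPM (3.78 ± 0.41), Nfkbiz at 7.78 to 18.9 CPM and then 54.8 to 124 CPM (2.81 ± 0.32), and Ier3 at 0.845 to 2.19 CPM and then 15.2 to 106 CPM (5.62 ± 0.51). Cxcl2 reached 17.4 to 73.5 CPM, Tnf 2.34 to 7.75 CPM, Ptgs2 2.05 to 9.28 CPM, Il6 0.481 to 2.14 CPM and Il10 0.481 to 2.99 CPM. These 5 had under 14 counts in every saline mouse and so entered the test through the CD95-Ab mice, and Csf2 and Il12b were not tested.

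**Figure D5:**
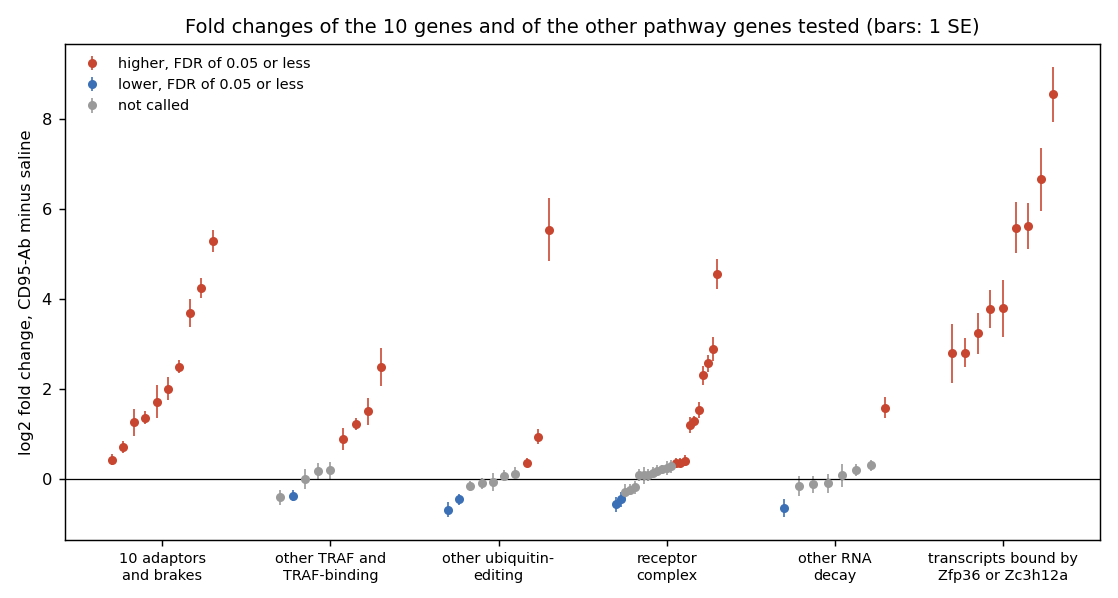
Log2 fold change (CD95-Ab minus saline, n = 5 mice per group) with bars of 1 SE for the 10 adaptors and brakes and for the 59 tested genes of the other pathway lists, in red where called higher, blue where called lower and grey where not called. All 10 genes at the left are red, against 27 of the 59 others.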

How the data were processed

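Liver RNA of 10 male mice, 5 per group, was measured, and groups and mouse numbers were taken from the sample labels. Reads were 100 bp, in pairs, and were aligned and assigned by the authors with RSEM (version 1.2.19). Per gene, the authors deposited the expected count, which holds whole numbers and is not normalized. Beside it the authors deposited FPKM, in which length and library total have been divided out. The methods name a human Gencode release, whereas the identifiers are mouse Ensembl identifiers, and the mouse release, the build and the use of strand are not given in the sources used here. Symbols and positions were taken from GENCODE M21 (GRCm38), which matched 37606 of 38922 identifiers. The 10 genes and all lists were chosen with earlier results of these data known.

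After filtering with filterByExpr (minimum count 10) and TMM scaling, the 10 mice were compared by edgeR's quasi-likelihood test (version 4.0.16 in R 4.3.3) on group alone. P-values were adjusted over the 13719 tested genes (FDR) and called at 0.05 or less, and the second threshold of the study was a log2 fold change of 2. Each standard error is the log2 fold change divided by the root of its F value. Ratios within a mouse used counts with 0.5 added and a two-sided exact permutation test, adjusted over 6 pairs. FPKM was used for levels between genes, and in an alternative test with limma 3.58.1 after adding 0.1. Tables were made with Python 3.11.15 and pandas 2.3.3. The fit was tested on simulated counts. Replicates within a group differed by more than sampling noise in all 20 pairs (chi-square per degree of freedom of 42.6 or more).

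All 10 genes were named, with those of each pathway list that passed the test at a log2 fold change of 1 or more in either direction, and others needed to account for a list. Alternatives were DESeq2 1.42.0, the likelihood ratio test of edgeR, other scaling factors, other filters, a prior count of 2, a stricter FDR of 0.01, limma on FPKM, a replicate block and leaving out single mice. Leaving out saline mouse 5 and CD95-Ab mouse 4 together was chosen after seeing the data. Totals of 25965699 to 62097636 counts per mouse set the precision of low values. A search of sequence after the stop codons is not reported here.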

Additional observations from a re-analysis of the deposited data

Results flagged for a closer look

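In 4 of 32 groups of 5 values, 1 mouse lay far from the others by Dixon's test, which by chance picks about 1 in 20 groups. Tnip2 was at 11.9 CPM in saline mouse 5, and the next saline mouse was at 5.34 CPM. Zc3h12a was at 5.14 CPM in the same mouse, and the next was at 2.92 CPM. The log2 ratio of Tnip1 to Tnip2 was -0.93 in this mouse and 0.16 in the nearest control. Traf2 was at 9.61 CPM in saline mouse 2, and the next saline mouse was at 7.97 CPM.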

How the results depend on the processing

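Fold changes of the 10 genes were recomputed 219 times under 22 alternatives. None reversed, 216 stayed on the same side of the threshold, and the 3 that did not were all of Cyld, with total counts, with limma on FPKM and at an FDR of 0.01. Between 9 and 10 of the genes were called under these alternatives, and 4 or 5 reached a log2 fold change of 2. Traf1 was not tested where 10 counts were required in every mouse. Of the other pathway genes, 22 to 28 were called higher, and the lower calls went from 6 to 1 at an FDR of 0.01, where fewer genes can pass by construction. Without saline mouse 5 and CD95-Ab mouse 4, 27 of them were called higher and 7 lower.

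The labels do not say whether the replicate numbers pair the mice. Same-numbered mice deviated together in 2 of 5 pairs (correlation over 0.1, mean 0.04), and 2 of 5 saline mice were nearest to their own number. With 5 pairs, these values cannot exclude a pairing. With the replicate block, 10 genes were called, 5 with a log2 fold change of 2 or more. A paired exact test with 5 pairs cannot go below p = 0.0625, and the differences it gave were 1.14 for Tnip1 to Tnip2, 3.02 for Traf1 to Traf2, 0.65 for Traf3 to Traf2, 4.90 for Tnfaip3 to Cyld and 2.86 for Tnfaip3 to Tnip1, each with an exact p of 0.0625. Without saline mouse 5 and CD95-Ab mouse 4, these 5 differences were 0.96, 2.995, 0.74, 4.83 and 2.83, each with an exact permutation p of 0.0286, the smallest that 4 mice against 4 can give. With each mouse left out in turn, the difference for Zc3h12a to Zfp36 ran from -0.068 (without saline mouse 2, and the same without saline mouse 4) to 0.46 (without saline mouse 5), and it was 0.62 without both saline mouse 5 and CD95-Ab mouse 4 (exact permutation p = 0.2). The cause was not tested. Depth limits Traf1 most, at 5 to 17 counts in saline mice.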

Other observations

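Zfp36 was not alone in its high values in saline mice 2 and 4. The genes compared here were chosen after their values were seen. Zfp36l1 was at 126 and 155 CPM in these 2 mice and at 85.5, 77.6 and 117 CPM in saline mice 1, 3 and 5. Irak2 was at 24.3 and 28.8 CPM in them and at 19.1, 17.7 and 24.9 CPM in the others, where saline mouse 5 fell between the 2. Cxcl1, an attractant of neutrophils, was at 36.2 and 48.7 CPM in mice 2 and 4, and at 8.63, 17.7 and 47.9 CPM in mice 1, 3 and 5, so that it was also high in saline mouse 5, in which Zfp36 was at 138 CPM.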
